A study of Mus musculus with 36 samples.

Results

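Matrix metalloproteinases (MMPs) and the tissue inhibitors of metalloproteinases (TIMPs) were followed in mouse keratinocytes with and without plakophilin 4 (PKP4), an adherens junction protein. The 10 members were Mmp2, Mmp3, Mmp9, Mmp10, Mmp13, Mmp14, Mmp15, Timp1, Timp2 and Timp3, taken by gene name from a count table of 55358 genes. WT and PKP4-KO keratinocytes were primary cells from newborn Pkp4+/+ and Pkp4-/- pups on a C57BL/6J background, the Pkp4 allele of the knockout lacking a critical exon. Rescue keratinocytes were PKP4-KO cells that stably expressed human PKP4 with an EGFP tag after lentiviral transduction and puromycin selection. Cells of each genotype grew on collagen I for 24 h or 72 h in low calcium medium (LCM) or in high calcium medium (HCM), in which keratinocytes form junctions and differentiate, and 3 libraries were made for each of the 12 groups. The number of pups behind the libraries was not given in the sources used here, so the p-values measure the spread between libraries, which may be technical. Different animals gave the WT and the PKP4-KO cells, and Rescue cells alone went through transduction and selection, so the genotype cannot be told apart from the culture.

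MMPs are zinc-dependent enzymes that cut extracellular matrix and cell surface proteins. They are made as inactive proforms, and TIMPs block them by binding to the active site. In skin, keratinocytes make several MMPs during wound repair, and TIMP-2 has a further role, since it links proMMP-2 to the membrane enzyme MT1-MMP, the product of Mmp14, which activates it. TIMP-3 binds to the matrix and also inhibits several ADAM proteinases, which shed proteins from the cell surface.

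All 36 libraries were poly(A)-selected RNA, and their totals lay between 13602728 and 22467187 counts. Levels are CPM, counts scaled to the library total, with the totals adjusted with TMM factors (trimmed mean of M-values). Changes are log2 fold changes from edgeR's quasi-likelihood test, with an SE derived from its F statistic. A gene was called at an adjusted p below 0.05 (Benjamini-Hochberg) among the 15114 genes that passed the filter on low counts. Of the 10 members, 7 passed this filter, whereas Mmp9, Mmp10 and Mmp13 did not. The TMM factors of the 3 PKP4-KO libraries after 72 h in HCM were 0.481 to 0.546, against 0.705 to 1.39 in all others. Pkp4 itself, the targeted gene, was lower in PKP4-KO in all 4 conditions, by log2 fold changes of -2.98, -2.33, -1.86 and -2.41, and the counts on the EGFP-PKP4 sequence lay between 1902 and 15325 in Rescue, between 0 and 113 in WT and between 3 and 112 in PKP4-KO.

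The members are spread over the genome. In the GRCm39 build, Timp3 lies at chr10:86136236-86185371 inside Syn3, which is on the opposite strand, Timp2 at chr11:118191887-118246566 and Timp1 at chrX:20736316-20740976 inside Syn1, again on the opposite strand. Mmp2 (chr8:93553902-93580049) and Mmp15 (chr8:96078895-96101708) share a chromosome, Mmp14 lies at chr14:54668878-54682821 and Mmp9 at chr2:164780439-164797771. Mmp13 (chr9:7272514-7283331), Mmp3 (chr9:7445822-7455975) and Mmp10 (chr9:7502353-7510241) are neighbours in a cluster. The libraries were strand-specific, but the strand setting of the counting was not given in the sources used here, so it is not known whether reads of Syn1 and Syn3 entered the counts of Timp1 and Timp3. Genes on the same strand that overlap a member are Cep295nl, over 10197 bases of Timp2, and the lncRNA gene Gm56768, over 919 bases of Mmp14. On the opposite strand, the lncRNA gene Gm62879 overlaps Mmp14 by 598 bases, Gm45472 overlaps Mmp2 by 1474 bases and 4921501M06Rik overlaps Timp2 by 967 bases. All these overlaps are between whole genes, introns included, and the overlap of exons was not determined. How reads in the overlaps were assigned was not given in the sources used here. It is therefore not known how far they affect the counts of these members. Reads may also be shared between Mmp3 and Mmp10, which both encode stromelysins, but their sequences were not compared here.

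Upstream sequences are shown for Timp3, the member with the largest change between genotypes, and for the 3 members in the cluster, which were all near the limit of detection. They are from RefSeq promoters of GRCm38.p6 and were placed on the forward strand of GRCm39 by an exact match, 5′ to 3′, ending before the first annotated exon base. Capitals mark the AP-1 element (TGACTCA or its reverse complement TGAGTCA) and the TATA element (TATAAA).
Timp3, chr10:86136026-86136235: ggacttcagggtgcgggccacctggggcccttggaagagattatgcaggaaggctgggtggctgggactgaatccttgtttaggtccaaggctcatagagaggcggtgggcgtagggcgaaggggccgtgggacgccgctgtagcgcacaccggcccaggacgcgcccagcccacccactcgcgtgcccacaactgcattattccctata
Mmp13, chr9:7272264-7272513: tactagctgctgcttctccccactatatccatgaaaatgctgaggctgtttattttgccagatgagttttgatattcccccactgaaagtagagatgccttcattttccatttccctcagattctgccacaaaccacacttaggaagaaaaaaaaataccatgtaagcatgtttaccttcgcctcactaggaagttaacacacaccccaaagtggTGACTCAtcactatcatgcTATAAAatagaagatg
Mmp3, chr9:7445572-7445821: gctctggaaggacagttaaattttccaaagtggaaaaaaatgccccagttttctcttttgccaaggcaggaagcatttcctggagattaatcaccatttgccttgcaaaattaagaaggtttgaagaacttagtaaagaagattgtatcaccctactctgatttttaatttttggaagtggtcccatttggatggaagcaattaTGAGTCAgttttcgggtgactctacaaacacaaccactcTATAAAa
Mmp10, chr9:7502093-7502342: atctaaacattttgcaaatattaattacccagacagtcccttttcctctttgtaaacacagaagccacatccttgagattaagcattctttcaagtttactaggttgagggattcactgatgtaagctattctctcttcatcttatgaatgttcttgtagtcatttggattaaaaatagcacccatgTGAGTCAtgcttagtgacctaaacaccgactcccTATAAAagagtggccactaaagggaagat
Each of the 3 cluster genes held 1 AP-1 element and 1 TATA element in the 250 bases before its RefSeq start. The windows of Mmp14, Mmp15, Timp1, Timp2 and Timp3 held neither, but they reached into annotated exons. The bases before the first exon base numbered 73 for Mmp14, 221 for Mmp15, 161 for Timp1, 0 for Timp2 and 210 for Timp3. For Timp2 and most of the Mmp14 window, the sequence upstream of the exons was therefore not searched. On either strand, the AP-1 letters were found in 4.46% and the TATA letters in 12.4% of the 32851 promoter windows of that length. No promoter entry was used for Mmp2 and Mmp9. The GC content of the windows was 37.2% to 40.4% in the cluster and 65.6% for Timp3.

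Timp3 was nearly silent in WT and abundant in PKP4-KO. After 24 h in LCM, its level was 1.64, 0.642 and 1.82 CPM in the WT libraries and 149.7, 210.3 and 312 CPM in the PKP4-KO libraries. At 24 h in HCM, the corresponding values were 2.63, 1.65 and 2.40 CPM in WT and 249, 326 and 352 CPM in PKP4-KO. The groups did not overlap in either medium. Timp3 at 72 h in LCM was 1.05, 1.07 and 1.23 CPM in WT and 21.5, 32.1 and 40.4 CPM in PKP4-KO, and at 72 h in HCM it was 0.0591, 0.822 and 0.82 CPM in WT and 78.6, 83.4 and 76.5 CPM in PKP4-KO. Every PKP4-KO library thus lay above every WT library of its condition, although the level in PKP4-KO itself was lower at 72 h. The log2 fold change was 7.34 ± 0.45, 7.10 ± 0.44, 4.80 ± 0.42 and 7.19 ± 0.49 in 24 h LCM, 24 h HCM, 72 h LCM and 72 h HCM, with adjusted p-values from edgeR's quasi-likelihood test of 2.03e-13, 1.81e-13, 2.17e-10 and 1.41e-12.

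Rescue cells had lost nearly all of this Timp3 mRNA. Its level was 2.55, 3.93 and 4.19 CPM in the Rescue libraries at 24 h in LCM and 3.29, 6.66 and 3.38 CPM at 24 h in HCM. After 72 h, the values were 1.65, 0.957 and 1.05 CPM in LCM and 2.64, 2.06 and 1.47 CPM in HCM. All 12 Rescue libraries lay below all PKP4-KO libraries, and the log2 fold change against PKP4-KO was -5.98, -6.12, -4.64 and -5.26 in the order above. Against WT, Timp3 remained higher in Rescue at 24 h in LCM (1.36 ± 0.40, adjusted p 0.0135 by edgeR's quasi-likelihood test) and at 72 h in HCM (1.93 ± 0.50, adjusted p 0.00316). At 24 h in HCM (0.98, 95% interval 0.19 to 1.78) and 72 h in LCM (0.17, interval -0.74 to 1.07), the difference did not pass the test. The call at 24 h in LCM was lost when TMM factors were left out (adjusted p 0.0554 by edgeR), when the fit held only the compared groups (0.0522) or without WT replicate 2 (0.0885). The call at 72 h in HCM was lost with only the compared groups (0.0609), whereas DESeq2 called the difference at 24 h in HCM (adjusted p 0.0285).

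Timp2 moved in the opposite direction. At 24 h in LCM, the WT libraries had 217, 259 and 270.1 CPM, the PKP4-KO libraries 15.7, 23.4 and 30.8 CPM and the Rescue libraries 108, 112 and 80.7 CPM. At 24 h in HCM, Timp2 was at 326, 273 and 345 CPM in WT, 27.3, 31.3 and 28.7 CPM in PKP4-KO and 149, 136 and 143 CPM in Rescue. The 3 genotypes fell into separate ranges, with Rescue in between. Timp2 after 72 h in LCM had 201, 231 and 199 CPM in WT, 12.4, 4.86 and 9.15 CPM in PKP4-KO and 89.3, 67.6 and 103 CPM in Rescue. Timp2 after 72 h in HCM had 289, 316 and 263 CPM in WT, 11.9, 9.45 and 9.31 CPM in PKP4-KO and 199, 183 and 193 CPM in Rescue, again in the same order without overlap. The log2 fold change in PKP4-KO against WT was -3.41 ± 0.24, -3.44 ± 0.24, -4.57 ± 0.26 and -4.82 ± 0.26, with a largest adjusted p of 3.64e-12 in edgeR's quasi-likelihood test. In Rescue against PKP4-KO it was 2.101, 2.30, 3.29 and 4.23, and in Rescue against WT it was -1.31, -1.14, -1.28 and -0.59, all 8 of them past the test. The last of these, at 72 h in HCM (adjusted p 0.0359 by edgeR), was lost without TMM factors (-0.20, adjusted p 0.597), without a filter on low counts (0.0516) and without any of 5 of the 6 libraries (0.0664 to 0.105).

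**Figure D1:**
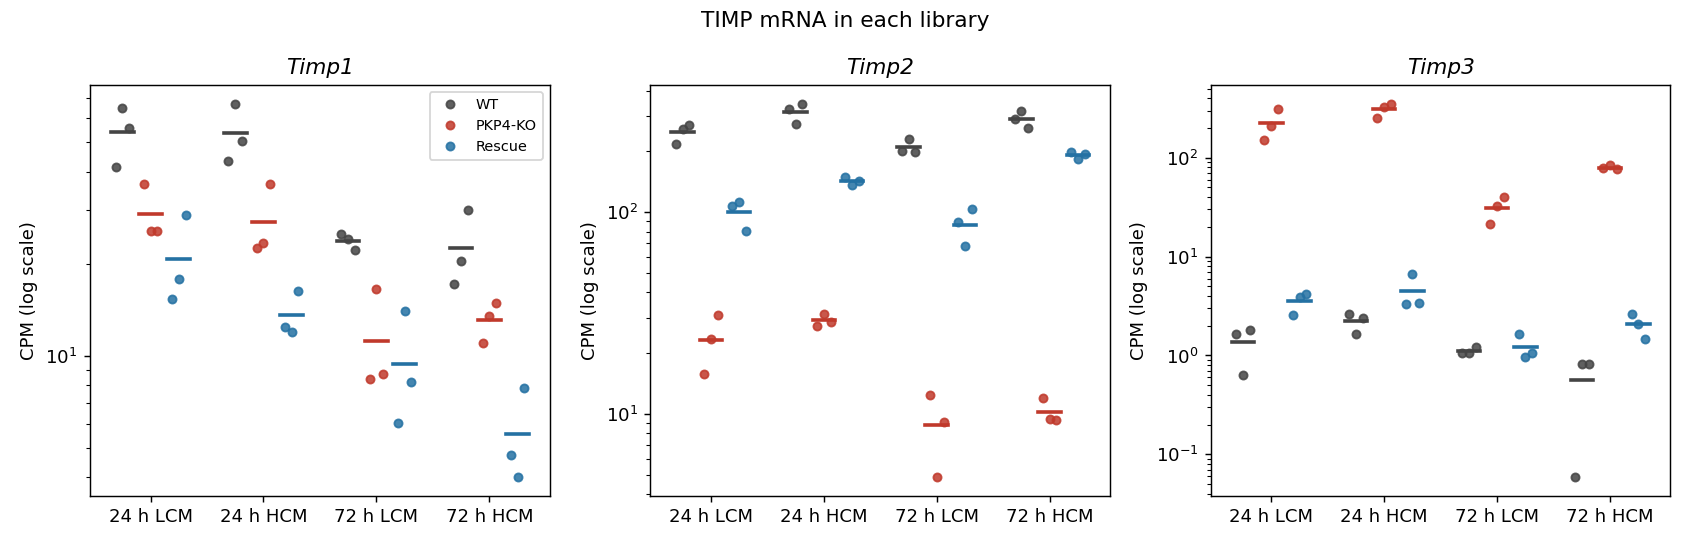
CPM of Timp1, Timp2 and Timp3 on a log scale in the 4 culture conditions, with 1 point for each library and a line at the mean of the 3 libraries of a group. Timp3 is higher in PKP4-KO than in WT and Rescue in each condition, whereas Timp2 is lower in PKP4-KO and takes values between WT and PKP4-KO in Rescue.

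Timp1, which encodes a secreted inhibitor of most soluble MMPs, was lower in both other genotypes than in WT. At 24 h, WT had 41.4, 65.0 and 56.0 CPM in LCM and 43.3, 67.0 and 50.7 CPM in HCM. PKP4-KO had 36.5, 25.6 and 25.7 CPM and 22.5, 23.5 and 36.4 CPM in these media, and Rescue 15.4, 17.8 and 29.0 CPM and 12.4, 12.01 and 16.3 CPM. No WT library overlapped with the others at this time. At 72 h, WT had 25.0, 24.2 and 22.1 CPM in LCM and 17.2, 20.4 and 30.1 CPM in HCM. PKP4-KO then had 8.41, 16.5 and 8.75 CPM and 11.1, 13.5 and 14.9 CPM, and Rescue 6.05, 13.99 and 8.19 CPM and 4.73, 4.01 and 7.85 CPM. WT was again above both, while PKP4-KO and Rescue overlapped in LCM at both times and were apart in HCM. The log2 fold change was -0.89, -0.97, -1.09 and -0.78 in PKP4-KO against WT and -1.39, -1.98, -1.35 and -2.03 in Rescue against WT, with adjusted p-values by edgeR's quasi-likelihood test of at most 0.0434 for the former and 0.0013 for the latter. Against PKP4-KO, Timp1 was lower in Rescue at 24 h in HCM (-1.01, adjusted p 0.00976 by edgeR) and 72 h in HCM (-1.25, adjusted p 0.00155), the latter being -0.08 without TMM factors and the former being lost without PKP4-KO replicate 3 (-0.76, adjusted p 0.0759 by edgeR). The call in PKP4-KO at 72 h in HCM was lost with RLE size factors (adjusted p 0.0954 by edgeR), with DESeq2 (0.0834) and with at least 10 counts in every library (0.0630 by edgeR). Leaving out any of 5 of its 6 libraries (0.0535 to 0.191) ended it as well. Over all alternatives, its log2 fold change lay between -1.50 and -0.53. The calls at 24 h were lost without 3 of the 6 libraries each (0.0734 to 0.0869 in LCM and 0.0513 to 0.0620 in HCM).

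The make-up of the TIMP mRNA can be compared within a library, independent of the scaling between libraries, when levels are divided by the gene length used in the counting (CPM per kb). In WT, Timp3 made up 0.00776% to 0.243% of the summed CPM per kb of the 3 TIMPs, against 16.6% to 53.8% in PKP4-KO and 0.309% to 1.66% in Rescue. The share of Timp2 was 47.5% to 79.2% in WT, 5.25% to 20.9% in PKP4-KO and 38.4% to 90.8% in Rescue. The 12 PKP4-KO libraries lay outside the range of the 24 others for both shares. Unlike the shares, the summed level of the TIMPs depends on the scaling between libraries, TMM factors included. It was 76.1 to 146 CPM per kb in WT, 15.3 to 91.6 in PKP4-KO and 29.9 to 58.7 in Rescue. The medians were 103, 44.6 and 50.6 CPM per kb.

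**Figure D2:**
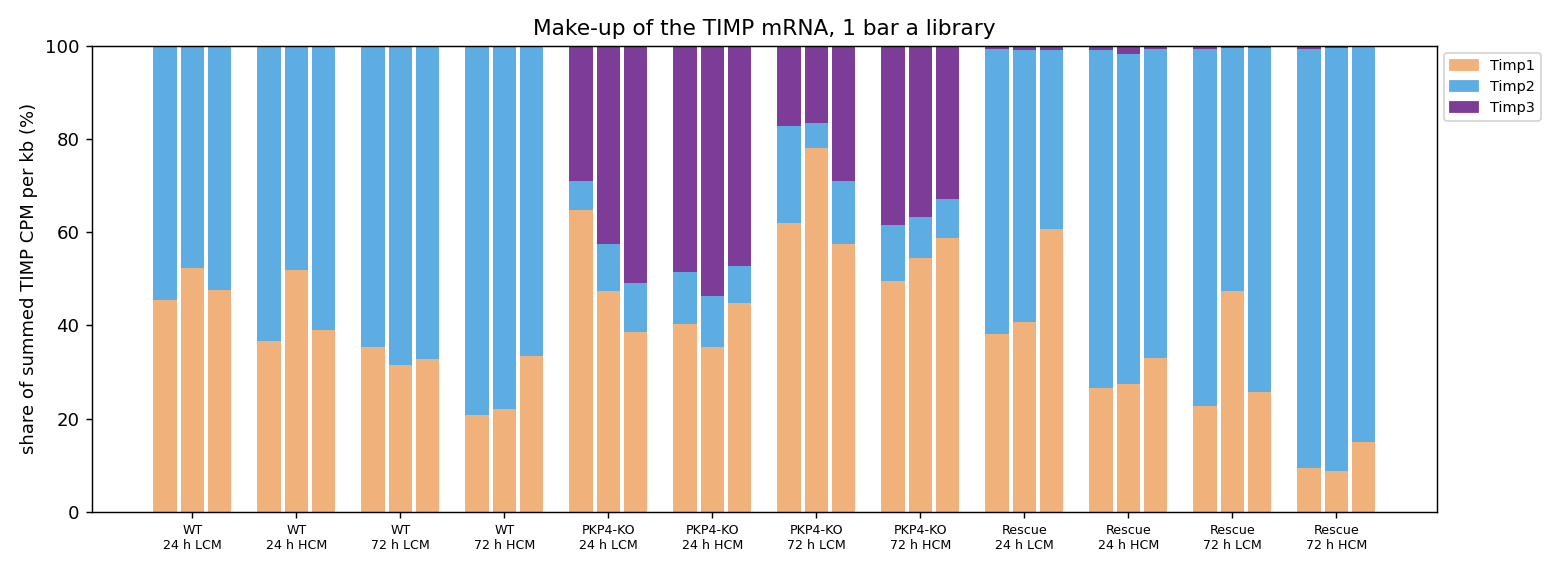
Share of Timp1, Timp2 and Timp3 in the summed TIMP level (CPM per kb, in percent), with 1 stacked bar for each of the 36 libraries. Timp3 takes 16.6% to 53.8% of the bar in PKP4-KO and at most 1.66% in all WT and Rescue libraries.

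Among the MMPs, Mmp2, which encodes gelatinase A, was higher in PKP4-KO in every condition. At 24 h in LCM, it was at 1.11, 1.11 and 0.885 CPM in WT, 4.65, 4.92 and 2.997 CPM in PKP4-KO and 0.546, 0.869 and 0.982 CPM in Rescue. At 24 h in HCM, it was at 0.618, 0.503 and 0.51 CPM in WT, 7.78, 7.15 and 3.55 CPM in PKP4-KO and 2.42, 2.59 and 1.74 CPM in Rescue. PKP4-KO stood above the others in both media, with the lowest of its values in replicate 3. Mmp2 after 72 h in LCM was at 1.76, 2.34 and 2.05 CPM in WT, 13.8, 13.2 and 14.6 CPM in PKP4-KO and 1.21, 1.25 and 1.05 CPM in Rescue. Mmp2 after 72 h in HCM was at 0.827, 1.94 and 2.05 CPM in WT, 13.6, 16.1 and 23.3 CPM in PKP4-KO and 1.02, 0.818 and 0.904 CPM in Rescue. The 3 PKP4-KO libraries were again apart from the 6 others. The log2 fold change in PKP4-KO against WT was 2.01 ± 0.31, 3.49 ± 0.33, 2.75 ± 0.29 and 3.48 ± 0.31, with a largest adjusted p of 4.94e-06 by edgeR's quasi-likelihood test. In Rescue against PKP4-KO it was -2.39, -1.46, -3.56 and -4.27, each past the test. Against WT, Rescue was higher at 24 h in HCM (2.03, adjusted p 3.32e-05 by edgeR) and lower at 72 h in LCM (-0.81, adjusted p 0.0402), but the latter call was lost in 8 of 12 alternative fits (highest adjusted p 0.133). The values at 24 h in LCM (-0.38) and 72 h in HCM (-0.79) did not pass the test, but the latter was called with RLE size factors (-0.81, adjusted p 0.0456 by edgeR) and without WT replicate 1 (-1.12, 0.00753).

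Mmp14, the gene of MT1-MMP, was the most abundant MMP per length in WT, where it made up 81.9% to 95.6% of the summed CPM per kb of the 7 MMPs. Its level in WT was 101, 119 and 121 CPM at 24 h in LCM and 116, 247 and 139 CPM at 24 h in HCM, against 101, 45.7 and 56.7 CPM and 46.7, 45.1 and 141.8 CPM in PKP4-KO. In each medium 1 PKP4-KO library stood high at this time, and the genotypes overlapped. At 72 h, WT had 94.8, 98.7 and 79.4 CPM in LCM and 73.3, 84.3 and 142.2 CPM in HCM, and PKP4-KO had 37.2, 57.9 and 35.3 CPM and 29.9, 37.2 and 36.6 CPM, without overlap. The log2 fold change was -0.75 ± 0.36, -1.10 ± 0.37, -1.07 ± 0.37 and -1.53 ± 0.37, with adjusted p-values by edgeR's quasi-likelihood test of 0.103, 0.0154, 0.0193 and 0.00122. The first passed without PKP4-KO replicate 1 (adjusted p 0.0267 by edgeR), and the second was lost without WT replicate 2 (-0.72, adjusted p 0.133), without PKP4-KO replicate 1 (0.0980) or 2 (0.0993), or with only the compared groups in the fit (0.156). The call at 72 h in LCM was lost without WT replicate 2 (0.0541) or PKP4-KO replicate 1 (0.0674) or 3 (0.0711).

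In Rescue, Mmp14 was at 120.1, 129 and 202 CPM, 106, 114 and 118 CPM, 73.5, 133 and 67.3 CPM and 103, 103 and 89.2 CPM in 24 h LCM, 24 h HCM, 72 h LCM and 72 h HCM. Against PKP4-KO, it was higher in 3 conditions, by 1.15, 1.07 and 1.51, but not at 24 h in HCM (0.53, adjusted p 0.254 by edgeR's quasi-likelihood test), where leaving out PKP4-KO replicate 3 brought it to 1.29 (0.00392). The calls in LCM were lost with only the compared groups in the fit (0.0619 at 24 h and 0.0584 at 72 h) and without 3 of the 6 libraries each, namely PKP4-KO replicates 2 and 3 and Rescue replicate 3 at 24 h (0.0622 to 0.0897) and PKP4-KO replicates 1 and 3 and Rescue replicate 2 at 72 h (0.0754 to 0.133). No difference from WT passed the test, the 95% interval being -0.76 to 0.73 at 72 h in HCM. The ratio of Mmp14 to Timp2, both per length, was 0.166 to 0.591 in WT, 0.942 to 7.79 in PKP4-KO and 0.302 to 1.64 in Rescue, so PKP4-KO and WT did not overlap.

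Mmp15, which encodes another membrane-bound MMP, was lower in Rescue than in WT throughout. It lay between 6.90 and 14.9 CPM in the 12 WT libraries (median 10.9), between 5.79 and 19.4 CPM in PKP4-KO (median 7.90) and between 2.103 and 7.79 CPM in Rescue (median 4.34). In PKP4-KO against WT, it was lower at 24 h in LCM (-0.62 ± 0.19, adjusted p 0.0124 by edgeR's quasi-likelihood test) and at 72 h in HCM (-0.53 ± 0.21, adjusted p 0.032). The other values were -0.06 and 0.20, with intervals of -0.46 to 0.35 and -0.19 to 0.60. The call at 72 h in HCM was lost in 4 alternative fits, among them RLE size factors (adjusted p 0.103 by edgeR) and DESeq2 (0.139), and without any of 5 of the 6 libraries (0.0546 to 0.135), and the call at 24 h in LCM was lost without PKP4-KO replicate 3 (0.0644). In Rescue against WT, Mmp15 was lower in all 4 conditions (-0.87, -1.06, -1.32 and -1.71). Against PKP4-KO it was -0.26, -1.005, -1.53 and -1.18, of which all but the first passed the test, and the last was -0.003 (adjusted p 0.990 by edgeR) without TMM factors.

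Mmp3, the gene of stromelysin 1, was close to the limit of detection, and 3 counts correspond to 0.110 to 0.436 CPM. The WT libraries had 3, 1 and 0 counts at 24 h in LCM, 0, 1 and 4 at 24 h in HCM and 2, 1 and 5 at 72 h in LCM. PKP4-KO had 17, 28 and 36, 3, 9 and 13 and 30, 24 and 38 counts in these conditions, and Rescue 34, 46 and 26, 8, 11 and 6 and 80, 36 and 81. Both genotypes were above WT without overlap, except for PKP4-KO in HCM, where replicate 1 lay within the WT range. At 72 h in HCM, WT had 9, 13 and 3 counts, PKP4-KO 3, 10 and 3 counts and Rescue 24, 22 and 15 counts, corresponding to 0.531, 0.763 and 0.308 CPM, 0.381, 1.45 and 0.341 CPM and 1.11, 0.857 and 0.714 CPM, so that all 3 genotypes overlapped. The ratio of the summed counts in PKP4-KO to WT, scaled to depth, was 20.2 (95% interval 7.58 to 75.8, counting error only) at 24 h in LCM, 4.50 (1.69 to 15.0) at 24 h in HCM, 16.0 (7.78 to 38.1) at 72 h in LCM and 1.19 (0.592 to 2.31) at 72 h in HCM. In edgeR's quasi-likelihood test the first 3 were called, with adjusted p-values of 5.05e-05, 0.0196 and 3.36e-05, and the one in 24 h HCM was lost without WT replicate 1 (0.108) or 2 (0.0554) or PKP4-KO replicate 3 (0.175). Rescue exceeded WT in the same 3 conditions, with ratios of 23.8 (9.04 to 89.1), 4.70 (1.77 to 15.7) and 27.6 (13.7 to 64.8), of which the one in 24 h HCM was lost without filter (0.0689) and without any of 4 of its 6 libraries (0.0783 to 0.171). No difference between Rescue and PKP4-KO passed the test, although the one at 72 h in HCM was called without TMM factors (1.53, adjusted p 0.0315 by edgeR).

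Of the members under the filter, Mmp9 had 2 counts in all 12 WT libraries together, 27 in PKP4-KO and 39 in Rescue. Mmp10 had 12, 26 and 73 counts, and Mmp13 had 5, 32 and 31. These genes encode gelatinase B, stromelysin 2 and collagenase 3. Mmp13 in PKP4-KO after 72 h in LCM had 18 counts against 0 in WT, at least 8.34-fold higher with a floor of 3 counts over the group, but 16 of these counts came from replicate 3. Mmp10 in Rescue after 72 h in HCM had 41 counts against 2 in PKP4-KO, a ratio of 7.07 (1.84 to 60.4, counting error only). A fit without the filter called PKP4-KO against WT in LCM for Mmp10 at 24 h (adjusted p 0.0237 by edgeR) and at 72 h (0.0202), and at 72 h for Mmp9 (0.0413) and Mmp13 (0.0247), all against WT groups at 0 counts. The same fit called Mmp10 in Rescue against WT at 24 h in LCM (0.0235) and in HCM against LCM in WT at 72 h (0.0187). It did not call Mmp10 in Rescue against PKP4-KO at 72 h in HCM (2.74, adjusted p 0.0924 by edgeR).

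**Figure D3:**
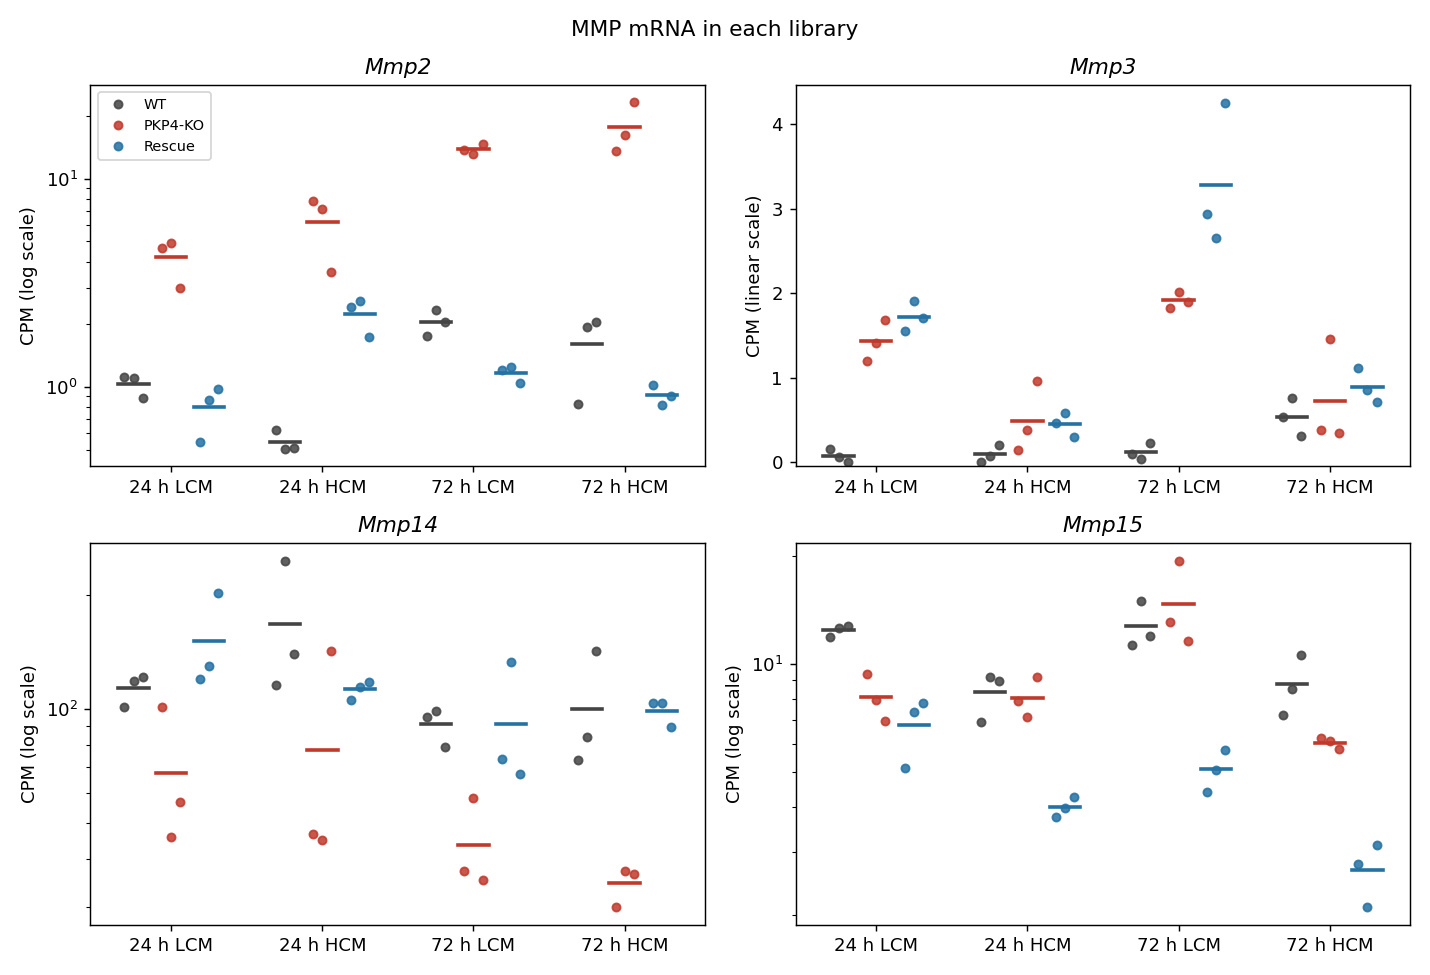
CPM of Mmp2, Mmp14 and Mmp15 on a log scale and of Mmp3 on a linear scale in the 4 culture conditions, with 1 point for each library and a line at the mean of the 3 libraries of a group. Mmp2 is highest in PKP4-KO in each condition, while Mmp3 is higher in PKP4-KO and Rescue than in WT in LCM.

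Counted over the 7 tested members, 6 were called in PKP4-KO against WT in each condition, in a table in which 40.2%, 42.8%, 45.1% and 51.8% of all tested genes were called (24 h LCM, 24 h HCM, 72 h LCM and 72 h HCM). Of these 24 calls, 11 were higher and 13 lower, where 19.7%, 20.7%, 21.3% and 21.9% of all genes were higher and 20.6%, 22.2%, 23.8% and 29.9% lower. The WT and PKP4-KO libraries did not overlap for 6, 4, 6 and 6 members, against 50.6%, 46.7%, 55.2% and 58.2% of all genes. In Rescue against PKP4-KO, 4, 5, 5 and 6 members were called, against 33.7%, 40.8%, 41.5% and 66.7% of all genes, 7 of the calls being higher and 13 lower, where 18.2%, 21.7%, 23.3% and 37.2% of all genes were higher and 15.5%, 19%, 18.3% and 29.5% lower. Here 4, 5, 6 and 6 members did not overlap, against 41.6%, 51.2%, 42.5% and 75.5% of all genes. In Rescue against WT, 5, 5, 5 and 4 were called, against 24.8%, 23.2%, 32.4% and 36.2% of all genes, 6 of the calls being higher and 13 lower, where 13.5%, 11.8%, 17.9% and 19.5% of all genes were higher and 11.4%, 11.4%, 14.6% and 16.7% lower. Members without overlap numbered 5, 6, 5 and 4, against 40.7%, 35.1%, 43.5% and 52.9% of all genes. These comparisons share their libraries and are no independent evidence of each other. At 72 h in HCM, the median of all genes was 0.20 in Rescue against PKP4-KO and moved by 1.17 when TMM factors were left out, and Timp2, Timp3 and Mmp2 were also called without these factors in PKP4-KO against WT and in Rescue against PKP4-KO.

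**Figure D4:**
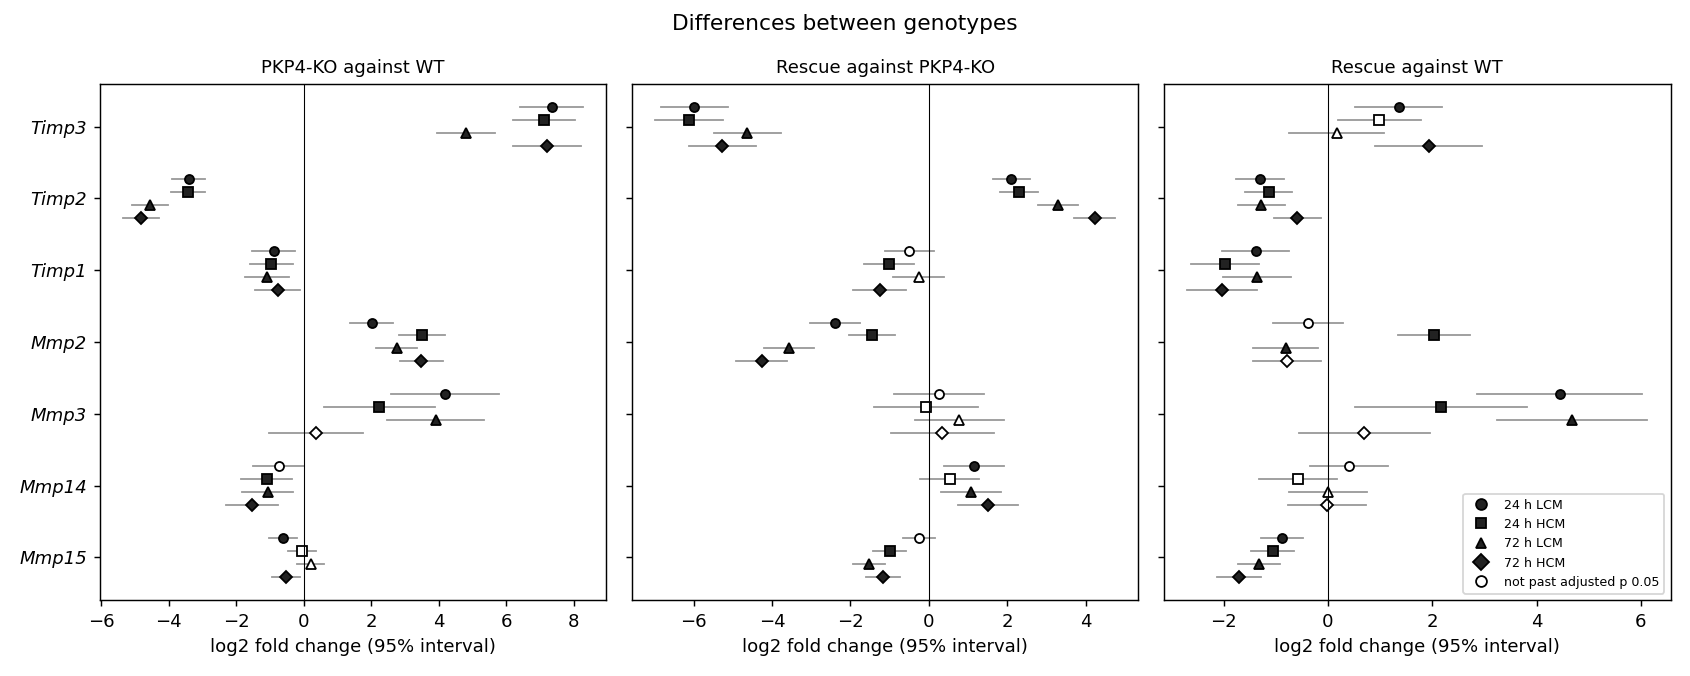
Log2 fold changes with 95% intervals for the 7 tested members in PKP4-KO against WT, Rescue against PKP4-KO and Rescue against WT. Symbols stand for the culture conditions and open symbols did not pass an adjusted p of 0.05. Timp3 and Mmp2 lie to the right and Timp2 to the left of 0 in PKP4-KO against WT, and on the other side in Rescue against PKP4-KO.

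The levels at 24 h and 72 h, in groups whose titles carry LD and HD, were compared next. Timp1 fell from 24 h to 72 h in all 6 combinations of genotype and medium, by log2 fold changes of -1.19 and -1.25 in WT (LCM and HCM), -1.39 and -1.06 in PKP4-KO, and in Rescue by -1.15 and -1.30. Its fall in Rescue in LCM was lost with only the compared groups in the fit (adjusted p 0.225 by edgeR) and without any of 3 of the 6 libraries (0.0734 to 0.136), namely 24 h replicate 3 and 72 h replicates 1 and 3. The fall in WT in LCM was lost without 24 h replicate 2 (0.0587) or 72 h replicate 3 (0.0570). Timp3 fell in 5 of the 6, by -2.84 and -1.96 in PKP4-KO (LCM and HCM), by -2.05 in WT in HCM and in Rescue by -1.49 and -1.11, whereas the value in WT in LCM (-0.30) did not pass the test. With only the compared groups in the fit, the Timp3 calls in WT in HCM (adjusted p 0.156 by edgeR) and in Rescue in LCM (0.0591) were lost. The latter was also lost without any of 4 of the 6 libraries (0.0563 to 0.0700), namely replicates 2 and 3 of both times. The Timp3 call in Rescue in HCM was lost without TMM factors (0.0777) and without 24 h replicate 2 (-0.69, 0.260), 72 h replicate 2 (0.0889) or 72 h replicate 3 (0.135). Timp2 fell in PKP4-KO (-1.40 and -1.51), and no call was made for it in WT or Rescue. Mmp2 rose with time in WT (0.98 and 1.52) and PKP4-KO (1.73 and 1.51), but in Rescue in HCM it fell by 1.30. The rise in WT in LCM (adjusted p 0.0371 by edgeR's quasi-likelihood test) was lost without any single library of the 6 (0.0515 to 0.134), and the one in PKP4-KO in HCM was 0.43 (0.204) without TMM factors. Mmp14 fell in PKP4-KO in HCM (-1.17), which was lost without PKP4-KO 24 h replicate 3 (-0.42, 0.290). The other calls were Mmp15 higher in PKP4-KO in LCM (0.86) and lower in Rescue in HCM (-0.58), and Mmp3 higher in WT in HCM (2.47), of which the last 2 were lost without single libraries (0.0564 to 0.204 and 0.0574 to 0.132). With only the compared groups in the fit, the calls of Timp2 (0.0549) and Mmp15 (0.0583) in PKP4-KO in LCM, of Mmp14 in PKP4-KO in HCM (0.0680) and of Mmp2 in WT in HCM (0.0988) were lost, and Timp2 was called in Rescue in HCM (0.39, adjusted p 0.0051 by edgeR). In all, 22 of 42 tests were called, 6 higher and 16 lower, and the share of all genes was 9.96% and 17.8% in WT (LCM and HCM), 26.1% and 55.8% in PKP4-KO, and for Rescue 9.81% and 24.3%. In the same order, 5.29%, 9.16%, 12.4%, 24.3%, 6.84% and 13.6% of all genes were higher at 72 h and 4.66%, 8.69%, 13.7%, 31.4%, 2.96% and 10.7% lower.

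HCM against LCM gave 11 calls in 42 tests, 4 higher and 7 lower. Among all genes, 14.2% and 21.4% were called in WT (24 h and 72 h), 2.83% and 32.6% in PKP4-KO, and for Rescue 12% and 24.9%. In the same order, 7.69%, 10.6%, 1.44%, 12.9%, 6% and 13% of all genes were higher in HCM and 6.48%, 10.8%, 1.4%, 19.7%, 5.96% and 12% lower. Mmp15 was lower in HCM in 5 of 6 comparisons (-0.57 and -0.54 in WT, -1.28 in PKP4-KO at 72 h, and -0.76 and -0.93 in Rescue). The call in WT at 24 h was lost without any single library of the 6 (adjusted p 0.0661 to 0.187 by edgeR) and in 3 alternative fits (0.0645 with RLE size factors, 0.170 without filter and 0.10003 with only the compared groups). The one in WT at 72 h was lost without any of 4 of the 6 libraries (0.0648 to 0.221) and in 5 alternative fits (0.0568 to 0.109), DESeq2 and RLE size factors among them. The one in Rescue at 24 h was lost without any of 3 of the 6 libraries (0.0513 to 0.0647), without filter (0.0552) and with only the compared groups (0.0859). Timp3 was higher in HCM in PKP4-KO at 72 h (1.34 ± 0.34, adjusted p 0.00322 by edgeR's quasi-likelihood test), which was 0.64 (0.160) without TMM factors. Timp2 was higher in HCM in Rescue at 72 h (1.14), and Mmp2 in Rescue at 24 h (1.50). Mmp3 was lower in HCM in Rescue at both times (-1.93 and -1.87) and higher in WT at 72 h (2.13). The Mmp3 call in Rescue at 24 h was lost without any single library (0.0535 to 0.134), the one in Rescue at 72 h without 3 of the 6 (0.0558 to 0.0657) and the one in WT without 4 of the 6 (0.0616 to 0.160). In PKP4-KO at 72 h, Mmp3 gave no call in the main fit. It was called lower in HCM with DESeq2 (-1.35, adjusted p 0.0385). The same held in edgeR without TMM factors (-2.14, 0.00600) and without HCM replicate 2 (-2.39, 0.0202). Timp1 and Mmp14 gave no call between media, although Timp1 in Rescue at 72 h was called without LCM replicate 1 (0.0304) or HCM replicate 3 (0.0295), and Mmp14 in PKP4-KO at 72 h without TMM factors (-0.99, adjusted p 0.00425 by edgeR).

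**Figure D5:**
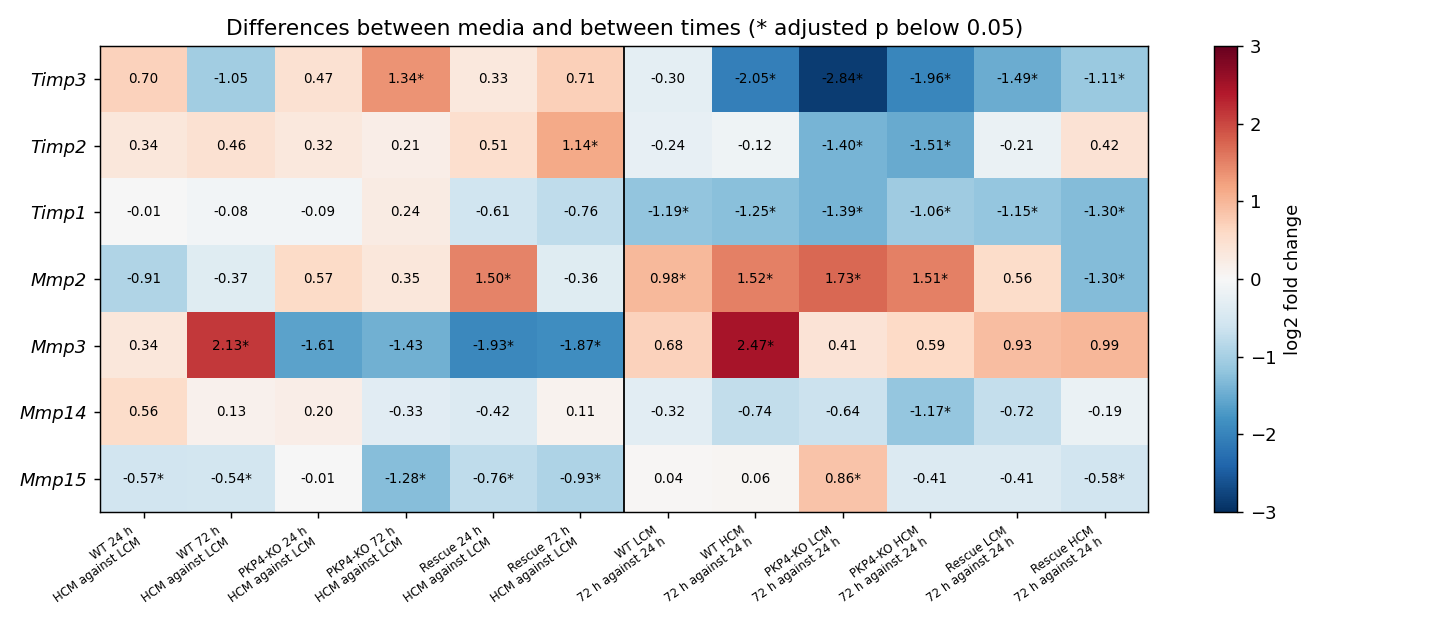
Heat map of the log2 fold changes, printed in each cell and shown by its colour, of the 7 tested members in HCM against LCM (left) and 72 h against 24 h (right) for each genotype, with an asterisk at an adjusted p below 0.05. The row of Timp1 is negative in all 6 comparisons of time, and Mmp15 is lower in HCM with an asterisk in 5 of 6.

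Other genes of pericellular proteolysis were read from a list of 46 genes holding the remaining MMPs, Timp4, Reck, the convertases, the plasminogen activator system, surface partners such as Cd44, ADAM and ADAMTS proteinases and cathepsins, of which 27 passed the filter. In PKP4-KO against WT, 14, 15, 18 and 16 of the 27 were called (51.9%, 55.6%, 66.7% and 59.3%), 15 of these calls being higher and 48 lower, and the median log2 fold change was -0.90, -0.65, -0.55 and -0.35, whereas that of all genes stayed within 0.1 of 0. The shares of all genes were 40.2%, 42.8%, 45.1% and 51.8%. In Rescue against PKP4-KO, 59.3%, 59.3%, 66.7% and 63% of the list were called, 53 of these 67 calls being higher and 14 lower, against 33.7%, 40.8%, 41.5% and 66.7% of all genes. The genes lower in PKP4-KO in all 4 conditions were Adam12, Adam9, Adam15 and Adam10, which encode membrane proteinases of the ADAM family, the cathepsin gene Ctsl, the urokinase receptor gene Plaur and Cd44, the hyaluronan receptor gene. Adam12 had 8.14 to 35.4 CPM in the WT groups and 0.282 to 3.87 CPM in the PKP4-KO groups, and a mean log2 fold change of -4.18 over the conditions. Ctsl was at 296 to 495 CPM in WT, 94.5 to 121 CPM in PKP4-KO and 362 to 1007 CPM in Rescue. Serpine2, the gene of an inhibitor of serine proteinases such as urokinase, was the only one higher in all 4, at 1.24 to 2.74 CPM in WT and 7.16 to 16.1 CPM in PKP4-KO. In Rescue it was at 11.6 to 20.5 CPM. Over HCM against LCM, the list gave 56 calls in 162 tests, 32 higher and 24 lower. These were 40.7% and 44.4% of the list in WT (24 h and 72 h), 14.8% and 29.6% in PKP4-KO, and for Rescue 29.6% and 48.1%, where 14.2% and 21.4%, 2.83% and 32.6%, and 12% and 24.9% of all genes were called.

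Markers of the cells were read beside these results. The summed level of 10 keratinocyte markers was 39930 to 68930 CPM in WT, 44959 to 80372 CPM in PKP4-KO and 29858 to 47529 CPM in Rescue over the libraries. The sum of 10 fibroblast markers was 5.82 to 13.9 CPM in WT, 0.381 to 8.43 CPM in PKP4-KO and 6.51 to 18.8 CPM in Rescue. Most of this sum was Twist2, with 1837, 683 and 2450 counts over the 12 libraries of WT, PKP4-KO and Rescue. In the same order, Pdgfra had 94, 9 and 402 counts, Col1a1 72, 65 and 207 counts, Col1a2 29, 30 and 174 counts and Col3a1 16, 24 and 192 counts. Lum had 0, 1 and 4 counts, Dpt 1, 5 and 4 counts and Col6a3 9, 13 and 21 counts. The fibroblast markers other than Twist2 and Pdgfra were thus near 0 in WT and PKP4-KO alike. The 4 keratins of simple epithelia summed to 3.59 to 19.0 CPM in WT, 6.04 to 13.3 CPM in PKP4-KO and 90.8 to 378 CPM in Rescue, mostly Krt7. Krt15, a keratin of basal cells and hair follicles, was at 7.03 to 125 CPM in the WT groups, 511 to 2057 CPM in PKP4-KO and 30.5 to 132 CPM in Rescue. The basal cell genes Itga6 and Col17a1 had 29.0 to 115 CPM and 176 to 439 CPM in the PKP4-KO groups, against 106 to 265 CPM and 328 to 655 CPM in WT and 125 to 253 CPM and 319 to 672 CPM in Rescue. Krt5 had 11978 to 18940 CPM in the WT groups and 14903 to 27586 CPM in the PKP4-KO groups. Krt14 had 24375 to 35309 CPM and 25422 to 37759 CPM, and Trp63 67.8 to 139 CPM and 59.3 to 197 CPM. Itgb4 had 127 to 237 CPM in WT and 99.3 to 186 CPM in PKP4-KO, and Dsp 1296 to 2002 CPM and 946 to 1146 CPM. The keratinocyte markers thus did not share a direction. Differentiation markers summed to 649 to 11152 CPM in WT, 626 to 24877 CPM in PKP4-KO and 784 to 5121 CPM in Rescue. The PKP4-KO libraries after 72 h in HCM, whose TMM factors were the lowest, had 23083 to 24877 CPM. Single markers differed in direction. Group means of Krt1 were 0.722 to 39.7 CPM in WT and 23.9 to 3752 CPM in PKP4-KO, and those of Krt10 9.62 to 533 CPM and 29.8 to 4437 CPM. Ivl had 27.7 to 144 CPM in WT and 4.65 to 20.3 CPM in PKP4-KO, and Lor 6.16 to 238 CPM and 2.06 to 40.4 CPM. Melanocyte markers reached at most 6.67 CPM, endothelial markers 5.41 CPM, leukocyte and Langerhans cell markers 6.44 CPM and Merkel cell markers 5.10 CPM in any library. The part of these markers in the results was not tested, and in bulk RNA a change in the share of a cell type and a change per cell cannot be told apart.

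The genes whose levels were most like those of each member over the 12 group means of log2(CPM + 1) were found among 12554 protein-coding genes, as a description without a test, since all points share the genotypes. They were Lcmt2 (Pearson r 0.980) and Fstl1 (0.975) for Timp3, Spast (0.991) and Mgam (0.985) for Timp2, and A430033K04Rik (0.950) and Mettl16 (0.949) for Timp1. For the MMPs they were Calm5 (0.988) and Coq9 (0.970) for Mmp2, Fkbp9 (0.965) and Cwc22 (0.958) for Mmp14, Mtrfr (0.901) and Apip (0.898) for Mmp15, and Ppard (0.922) and Ptk2b (0.920) for Mmp3. Among the members, r was -0.83 between Timp2 and Timp3, 0.88 between Timp2 and Mmp14 and -0.95 between Mmp2 and Mmp14.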

How the data were processed

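Poly(A) RNA of 36 libraries was sequenced by the authors as strand-specific pairs. The submitters' processing notes name HISAT2 2.1.0, SAMtools 1.10 and featureCounts 2.0.0 with the mm39 build. The authors deposited counts per gene, whole numbers without normalization, and the gene length column of that table was used for CPM per kb. Groups came from the sample labels, and columns of other samples numbered 0. The titles of the libraries taken as Rescue carry GFP, a name the paper also gives to WT cells with EGFP alone. In these libraries, the counts on the EGFP-PKP4 sequence were 1902 to 15325. Pkp4 itself was at 6.52 to 11.9 CPM, against 33.4 to 76.3 CPM in WT. The sample titles carry LD where 24 h is given here and HD where 72 h is given, letters that the paper does not explain. If they also stand for another difference in culture, it cannot be told apart from time.

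Genes were filtered with filterByExpr of edgeR 4.0.16 (R 4.3.3), which left 15114 of the 55358 genes, and scaled with TMM. A single quasi-likelihood model over all 12 groups (24 residual degrees of freedom) gave every contrast, two-sided, with Benjamini-Hochberg adjustment over all tested genes of a contrast and a threshold of 0.05. The script was tested on simulated data. The SE was the size of the log2 coefficient without edgeR's shrinkage, divided by the square root of the F statistic. The 95% intervals of log2 fold changes were built from this SE with 24 degrees of freedom. Levels printed for a library are CPM with TMM factors, and intervals of count ratios are 95% exact intervals that cover counting error only, with a floor of 3 counts over a group. Within groups, the chi-square per gene was at least 5.63 over 36 pairs of libraries, so none was counted as a copy.

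The members and gene lists were chosen with earlier results of these data known. All members were named. Of the list on proteolysis, the genes called in the same direction in all 4 comparisons of PKP4-KO and WT were named, and of genes alike in pattern the first 2 for each member. Alternatives were RLE size factors, no TMM factors, DESeq2 1.42.0, no filter, a minimum of 10 counts per library, a fit restricted to the groups of a contrast, a replicate block and each library left out in turn. Gene positions came from GENCODE M39 and promoters from RefSeq, with entries for 8 of the 10 members. Python 3.11.15 and matplotlib 3.10.9 drew the figures. Protein sequences were not analysed here.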

Additional observations from a re-analysis of the deposited data

Results flagged for a closer look

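In all, 5 tests of whether the difference between PKP4-KO and WT itself changed with the medium or the time passed an adjusted p of 0.05 in edgeR's quasi-likelihood test, out of 28 made for the members. Among all genes, 4.02% passed for HCM less LCM at 24 h, 5.74% for HCM less LCM at 72 h, 5.25% for 72 h less 24 h in LCM and 26.6% for 72 h less 24 h in HCM.

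For Timp3, the log2 difference between PKP4-KO and WT was larger in HCM than in LCM at 72 h by 2.39 (adjusted p 0.0166 by edgeR), and in LCM it was smaller at 72 h than at 24 h, with a change of -2.53 (0.00458). The former was lost without TMM factors (0.0645) and without WT 72 h HCM replicate 1 (1.78, 0.0727), the library with 1 Timp3 count.

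For Timp2, the difference was more negative at 72 h than at 24 h, by -1.15 in LCM (adjusted p 0.0266 by edgeR) and by -1.38 in HCM (0.00166). The one in LCM was lost without TMM factors (0.0788), with only the compared groups in the fit (0.180) and without any of 5 of the 12 libraries, namely WT 24 h replicate 1, WT 72 h replicate 2, PKP4-KO 24 h replicates 2 and 3 and PKP4-KO 72 h replicate 2 (0.0548 to 0.127).

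For Mmp3, the difference between PKP4-KO and WT was smaller in HCM than in LCM at 72 h, with a change of -3.56 (adjusted p 0.0204 by edgeR). It was lost with only the compared groups in the fit (0.0575) and without any of 5 of the 12 libraries, namely WT LCM replicates 1 and 2, WT HCM replicate 2 and PKP4-KO HCM replicates 1 and 3 (0.0505 to 0.0721).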

How the results depend on the processing

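No call of a member turned its direction under any alternative, and the Timp2, Timp3 and Mmp2 calls of PKP4-KO against WT and of Rescue against PKP4-KO were kept in all of them that could give a value. A minimum of 10 counts in every library left only Mmp14, Mmp15, Timp1 and Timp2 to test and gave 12 calls for PKP4-KO against WT, 12 for Rescue against PKP4-KO, 12 for Rescue against WT, 5 for HCM against LCM, 11 for 72 h against 24 h and 3 for the change of the PKP4-KO effect. Without a filter, HCM against LCM gave 7 calls. With only the compared groups in the fit, 72 h against 24 h gave 13 calls and the change of the PKP4-KO effect 3, and without TMM factors the latter gave 8. Leaving out each library gave 23 to 27 calls for PKP4-KO against WT, 20 to 21 for Rescue against PKP4-KO, 18 to 22 for Rescue against WT, 8 to 13 for HCM against LCM, 20 to 23 for 72 h against 24 h and 3 to 7 for the change of the PKP4-KO effect, the 3 without WT 72 h LCM replicate 2. Over all genes, leaving out TMM factors shifted the median by -0.76 and took the share of higher calls from 42.2% to 13.5% for PKP4-KO against WT at 72 h in HCM, and by 1.17 and from 55.8% to 84.7% for Rescue against PKP4-KO. The cause was not tested. A replicate block changed no call of a member (196 of 196 kept their side of the threshold), and same-numbered libraries correlated over 0.1 in 25 of 72 pairs, so the numbers were not taken as pairing, although every library correlated best with its own number in 3 of 24 comparisons. Depth limits Mmp3, Mmp9, Mmp10 and Mmp13 most, where 3 counts correspond to 0.110 to 0.436 CPM. Counts were also low for Mmp2 in WT (7 to 59 in a library) and Rescue (12 to 49). For Timp3 they were 1 to 51 in WT and 13 to 126 in Rescue.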
